A study of Mus musculus with 24 samples.

Results

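Interferon-stimulated effector genes are the genes that a cell switches on when type I interferon reaches its receptor, and their protein products tag, bind, cut or trap viral and bacterial material. A list of 42 such genes was followed here in BV-2 cells, an immortalised mouse microglial line, after lipopolysaccharide (LPS) with or without a plant cannabinoid. A gene counted as measured when a probe of the Illumina MouseRef-8 bead array carried its symbol, which held for 38 of the 42 members with 48 probes among 24611 in all. Trim25, Dtx3l, Ifi203 and Ifi44 were not analysed here. Where a member had several probes, the probe with the highest mean log2 signal over all arrays stood for it.

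The 24 arrays fell into 6 groups of the same cell line. CBD+LPS (2 arrays) received cannabidiol (CBD) at 10 µM for 2 h and then LPS at 100 ng/ml for a further 4 h, and THC+LPS (4 arrays) received Δ9-tetrahydrocannabinol (THC) in the same way. LPS (6 arrays) received LPS alone, CBD (2 arrays) and THC (4 arrays) received the cannabinoid alone for 6 h, and Cntr (6 arrays) received neither. The doses and times are those of the study's methods. The methods describe the replicate arrays as independent, but they give other numbers of replicates than the labels, whose group sizes were followed here. All values come from 1 cell line, and the sources used here do not say whether the replicates were separate cultures, so the p-values reflect how these arrays varied, and that variation may be technical only.

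LPS binds Toll-like receptor 4, and the TRIF branch of that receptor leads through IRF3 to transcription of interferon beta. Secreted interferon beta then acts on the same and neighbouring cells through IFNAR, JAK1 and TYK2, and transcription factors that include STAT2 and IRF9 bind a short DNA element, the interferon-stimulated response element (ISRE), in the promoters of the effector genes. Microglia, the resident macrophages of the brain, are known to make this response after LPS and after viral infection.

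Replicates of a group correlated at 0.986 to 0.996 over all probes. The arrays' quantile-normalised log2 signals had medians of 6.996 to 6.998 and reached 15.3 at the top on every array, and 36.3% of probes were detected (detection p below 0.05) on all 24 arrays. Of the 8 markers listed for microglia and macrophages, 6 were measured and all 6 were detected (Trem2, C1qb, Aif1, Itgam, Ptprc and Tyrobp), with a summed log2 signal of 62.4 to 65.1 on LPS arrays and 61.5 to 65.3 on Cntr arrays. No marker of oligodendrocytes, fibroblasts or T and NK cells was detected, and the lists for astrocytes and neurons had 1 detected gene each, Aldoc and Tubb3. Of the 38 members, 20 were detected on all 24 arrays, and 6 were detected on none (Ifit1, Rtp4, Zbp1, Ifi204, Iigp1 and Sp100).

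The promoters of the members are shown first, because many of them hold a short element known from interferon-stimulated genes. RefSeq promoters (mouse build GRCm38.p6, 250 bases before to 50 after the start site) were matched for 33 of the 42 members. The letters GAAANNGAAA, or TTTCNNTTTC when the element lies on the other strand, which hold the core of an ISRE, occurred in the promoter of 19 of the 33 members (57.6%), against 3.99% of 27025 mouse genes. Each line below gives the matches in capitals with 10 bases on either side, read 5′ to 3′ in the direction of the gene. They were chosen to show members of several role groups that were higher after LPS and, at the end, a pair whose probes showed no called change.
Isg15 (chr4:156200865-156200906, minus strand, 3 overlapping matches): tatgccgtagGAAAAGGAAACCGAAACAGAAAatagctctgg
Rsad2 (chr12:26456553-26456582, minus strand): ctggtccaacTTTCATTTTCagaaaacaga
Gbp3 (chr3:142559989-142560024, plus strand, 2 overlapping matches): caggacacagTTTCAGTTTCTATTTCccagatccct
Igtp (chr11:58199512-58199541, plus strand): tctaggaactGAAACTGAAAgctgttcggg
Irgm1 (chr11:48871425-48871460, minus strand, 2 overlapping matches): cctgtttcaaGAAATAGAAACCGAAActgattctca
Ifit3 (chr19:34583363-34583426, plus strand, 2 matches): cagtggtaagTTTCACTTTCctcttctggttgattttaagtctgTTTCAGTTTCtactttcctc
Stat2 (chr10:128270266-128270295, plus strand): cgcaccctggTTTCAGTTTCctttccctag
Ifit1 (chr19:34640775-34640823, plus strand, 2 matches): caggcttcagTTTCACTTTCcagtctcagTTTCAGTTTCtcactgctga
Gbp2 (chr3:142620594-142620623, plus strand): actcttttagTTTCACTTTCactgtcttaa

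The elements of Isg15 lay between 88 and 47 bases before its start site, and those of Irgm1 between 40 and 5 bases before it, counting the 10 flanking bases. Cmpk2 is set beside Isg15 because its signal after LPS differed from Cntr almost as much while none of these letters occurred in its promoter. The 250 bases before each start site are given in lower case with any match in capitals.
Isg15 (chr4:156200819-156201068, minus strand): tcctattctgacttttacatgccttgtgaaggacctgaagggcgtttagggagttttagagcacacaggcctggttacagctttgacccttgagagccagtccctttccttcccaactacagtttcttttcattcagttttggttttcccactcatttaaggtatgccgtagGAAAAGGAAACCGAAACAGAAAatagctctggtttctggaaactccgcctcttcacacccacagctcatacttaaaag
Cmpk2 (chr12:26468965-26469214, plus strand): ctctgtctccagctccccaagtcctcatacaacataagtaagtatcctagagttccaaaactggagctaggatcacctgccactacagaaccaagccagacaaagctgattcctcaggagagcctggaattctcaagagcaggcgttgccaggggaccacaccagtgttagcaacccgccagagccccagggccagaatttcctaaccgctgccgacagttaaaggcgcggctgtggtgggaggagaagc
A match is a string of letters and not a binding site, and a window without one says nothing about regions outside it. Several members are neighbours on the chromosome, with no protein-coding gene between them in RefSeq's order (Rsad2 and Cmpk2, Ifit2 and Ifit3, Oasl1 and Oasl2, Oas2 and Oas3).

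LPS arrays were compared with Cntr arrays to ask how far the family responded to LPS alone. The members were higher almost throughout: 30 of the 38 measured members passed the test in limma (adjusted p below 0.05 over all 24611 probes), all of them higher, whereas 5.63% of all probes were called higher and 7.94% were called lower. The median log2 difference was 1.85 over the 38 members and -0.01 over all probes, and 24 members were at least 2-fold higher, against 1.63% of all probes. For 25 members every LPS array lay above every Cntr array, which held for 3.89% of all probes. The called members whose groups overlapped were Trim21, Bst2, Oas1a, Oas3 and Ifih1. In RNA from a whole culture, more responding cells and more RNA per cell cannot be told apart. Folds are on the scale of signals that were not background corrected, and probes of related genes (the Ifit, Oas, Gbp and Irgm families) can take up each other's RNA, so their single values are uncertain.

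**Figure D1:**
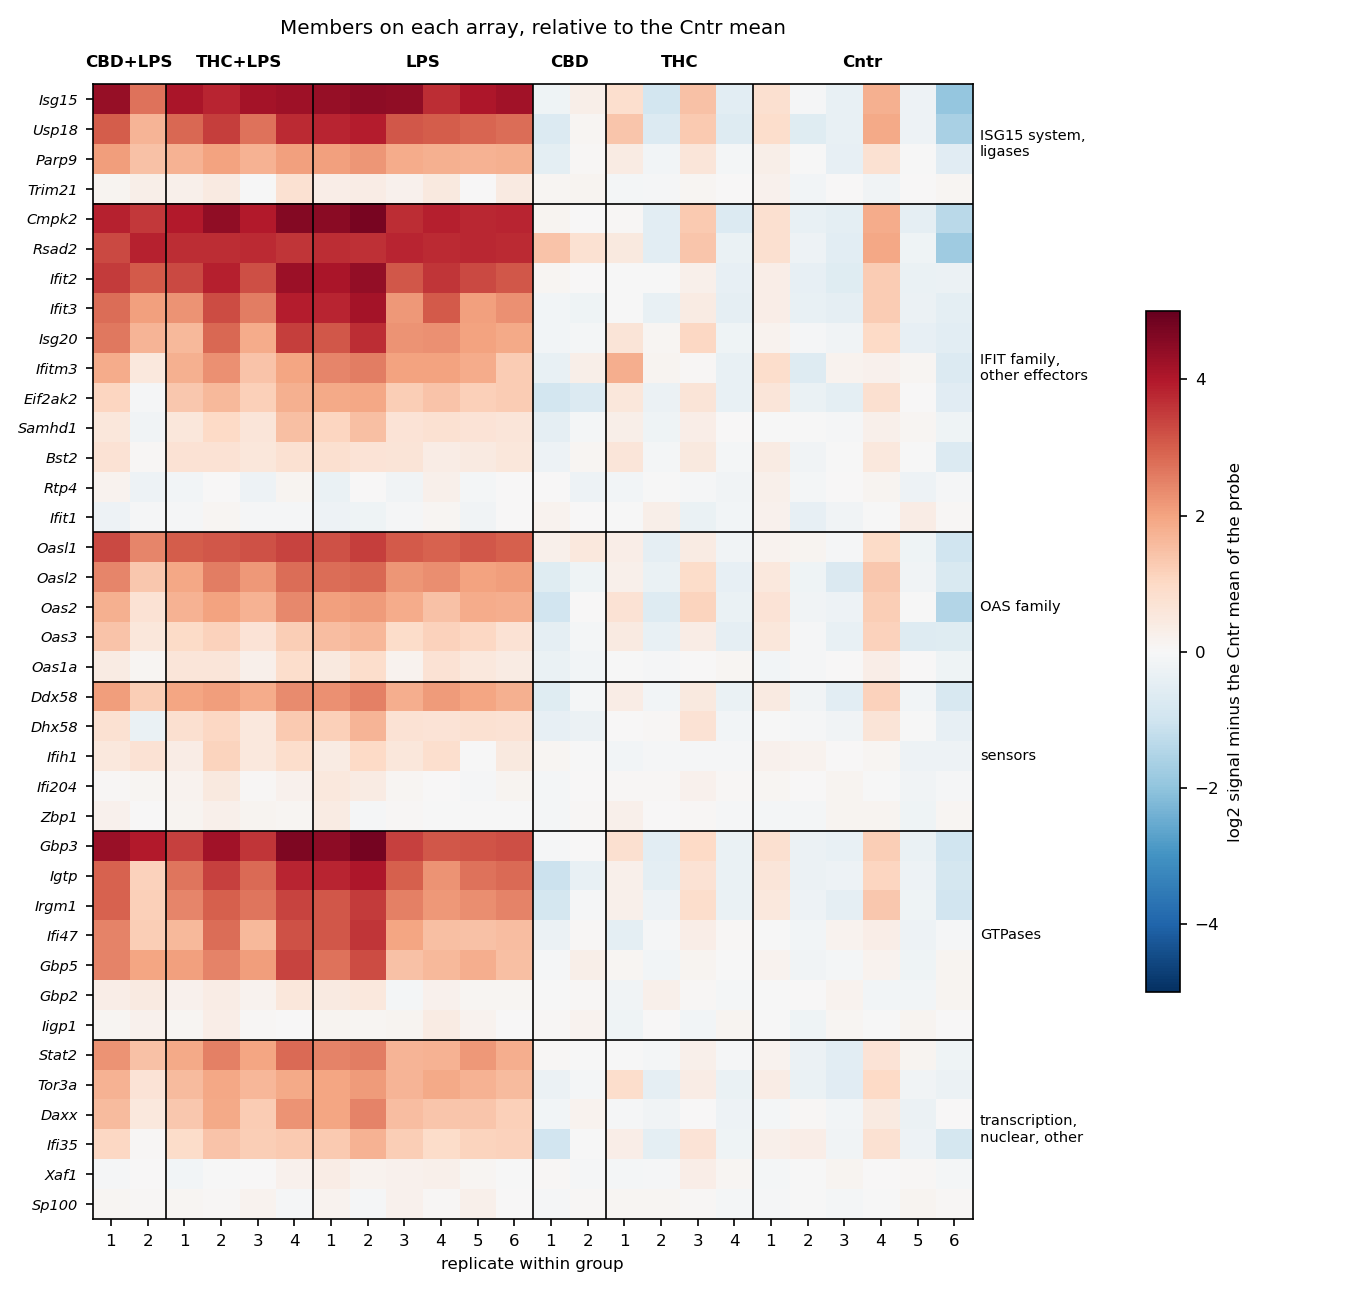
Difference of each member's log2 signal from the mean of the 6 Cntr arrays, with members as rows grouped by role and the 24 arrays as columns ordered CBD+LPS, THC+LPS, LPS, CBD, THC and Cntr. The 12 arrays that received LPS stand apart from the other 12 for most members, and within each group some arrays are higher than the others across many members at once.

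The first role group joins the ISG15 system, which attaches the ubiquitin-like protein Isg15 to other proteins, with ubiquitin ligases and their partners. All 4 of its measured members were called higher (median log2 difference 2.58, Trim21 included). The log2 signal of Isg15 itself was lowest at 13.64, median 14.24 and highest 14.42 on LPS arrays, against lowest 8.04, median 9.82 and highest 11.77 on Cntr arrays. LPS arrays lay close together and well clear of the Cntr arrays, which spread over more than 3 log2 units. Isg15 was 18.3-fold higher with LPS (log2 difference 4.19, SE 0.44; limma, adjusted p = 1.2e-07). Usp18, the protease that takes Isg15 off its targets and restrains the interferon receptor, had a log2 signal of 12.18, 12.45 and 13.34 (lowest, median and highest) on LPS arrays, against 7.79, 9.10 and 11.31 on Cntr arrays. The groups did not overlap, and the difference was 9.55-fold (log2 3.26, SE 0.46; limma, adjusted p = 9.27e-06). Parp9, the partner of the ubiquitin ligase Dtx3l, was higher by 1.90 on the log2 scale. Trim21, a cytosolic antibody receptor, passed with an adjusted p of 0.0473 in limma but was not detected on any LPS or Cntr array, so no fold is given.

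Of the 11 antiviral effectors that act on RNA, nucleotides or membranes, 9 were higher (median log2 difference 2.02). Cmpk2, a mitochondrial nucleotide kinase, had log2 signals of 13.04, 13.20 and 14.08 (lowest, median and highest) on LPS arrays, against 8.002, 8.93 and 11.20 on Cntr arrays. Its neighbour Rsad2, or viperin, which makes a chain-terminating nucleotide, had 14.78, 14.88 and 14.93 on LPS arrays, against 9.38, 10.90 and 13.09 on Cntr arrays. Neither gene's groups overlapped, and the differences were 16.8-fold for Cmpk2 (log2 4.07, SE 0.38; limma, adjusted p = 2.03e-08) and 13.3-fold for Rsad2 (log2 3.73, SE 0.39; adjusted p = 1.2e-07). The Rsad2 values of the 6 LPS arrays had an SD of 0.05, and the probe ranked between 33 and 70 of all 24611 probes on them, near the top of the scale at 15.3, so a further rise would have little room to show. Ifit2, which binds viral RNA, was 12.1-fold higher (log2 3.59, SE 0.27; adjusted p = 5.57e-10) and Ifit3 was higher by 2.93 on the log2 scale, and Ifit3 was detected on 2 of 6 Cntr arrays. Isg20, an exonuclease that degrades RNA, was higher by 2.54 with 2 of 6 Cntr arrays detecting it, and Ifitm3, which blocks fusion of viruses with the endosome, by 2.02. Smaller log2 differences were measured for Eif2ak2 (1.49), the double-stranded RNA-activated kinase PKR, and for Samhd1 (0.90), which depletes deoxynucleotides. Bst2, or tetherin, which holds budding virus at the cell surface, was higher by 0.59. Its mean log2 signal was already 14.02 on Cntr arrays, so it too had little room to rise. A second Samhd1 probe, detected on 3 of 6 LPS arrays and 1 of 6 Cntr arrays, was not called (0.24).

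All 5 oligoadenylate synthetase genes were higher. The catalytic members make the second messenger that activates RNase L, whereas mouse Oasl1 lacks that activity and is known to restrain translation of Irf7. Oasl1 had log2 signals of 13.97, 14.08 and 14.46 (lowest, median and highest) on LPS arrays, against 10.03, 11.04 and 11.95 on Cntr arrays. Its neighbour Oasl2 had 9.50, 9.76 and 10.37 on LPS arrays, against 6.74, 7.28 and 8.85 on Cntr arrays, 4 of which detected it. Both genes separated the groups in full, by 8.74-fold for Oasl1 (log2 3.13, SE 0.21; limma, adjusted p = 9.71e-11, the lowest among the 38 members) and by 5.25-fold for Oasl2 (log2 2.39, SE 0.30; adjusted p = 1.61e-06). Oas2 was higher by 1.86, Oas3 by 1.17 and Oas1a by 0.53 on the log2 scale. Oas3 was detected on all 6 LPS arrays and 3 of 6 Cntr arrays, and Oas1a on 4 of 6 LPS arrays and 1 of 6 Cntr arrays. Both differences are therefore measured against signals mostly near background. The second Oas3 probe was not called, but it was not detected on any LPS or Cntr array, so no difference is given.

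Among the sensors of nucleic acid in the cytosol, 3 of 5 measured members were higher. Ddx58, which encodes the RNA helicase RIG-I, had log2 signals of 10.03, 10.31 and 10.77 (lowest, median and highest) on LPS arrays, against 7.44, 8.10 and 9.42 on Cntr arrays. The groups were separate, and the difference was 4.25-fold (log2 2.09, SE 0.24; limma, adjusted p = 6.2e-07). Dhx58, the related helicase LGP2, had 8.19, 8.26 and 9.19 on LPS arrays, against 7.10, 7.46 and 8.16 on Cntr arrays, 5 of which detected it, so that the highest Cntr array came close to the lowest LPS array. It was 1.95-fold higher (log2 0.97, SE 0.20; adjusted p = 0.00121), and its log2 difference was 0.45 after background correction with the neqc method, which kept the call. Ifih1, or MDA5, was detected on 2 of 6 LPS arrays and on no Cntr array, so it has an adjusted p of 0.00595 and no fold.

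Of the 7 interferon-inducible GTPases, which coat pathogen vacuoles and membranes, 5 were higher (median log2 difference 2.20). Gbp3 had log2 signals of 11.72, 11.93 and 13.39 (lowest, median and highest) on LPS arrays, against 7.61, 8.30 and 9.83 on Cntr arrays. Igtp, also called Irgm3, had 11.58, 12.23 and 13.37 on LPS arrays, against 8.43, 9.07 and 10.38 on Cntr arrays. The lowest LPS array was above the highest Cntr array for both, and the differences were 12.9-fold for Gbp3 (log2 3.69, SE 0.36; limma, adjusted p = 3.55e-08) and 8.64-fold for Igtp (log2 3.11, SE 0.35; adjusted p = 3.51e-07). Irgm1 was higher by 2.69 and Ifi47 by 2.20 on the log2 scale. Gbp5, known as a promoter of inflammasome assembly, was detected on all 6 LPS arrays and on none of the 6 Cntr arrays. It was at least 2.73-fold higher (limma, adjusted p = 1.18e-06), where the bound sets the LPS mean against the lowest signal that counted as detected on each Cntr array, or the Gbp5 signal there if that was higher.

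The last group holds nuclear and other proteins, and 4 of its 6 measured members were higher. Stat2, a transcription factor that acts at the ISRE, had log2 signals of 9.71, 9.98 and 10.56 (lowest, median and highest) on LPS arrays, against 7.47, 7.97 and 8.68 on Cntr arrays. Tor3a, a torsin ATPase of the endoplasmic reticulum, had 11.91, 12.14 and 12.44 on LPS arrays, against 9.77, 10.10 and 11.32 on Cntr arrays. The groups were apart for both genes, by 4.21-fold for Stat2 (log2 2.07, SE 0.20; limma, adjusted p = 2.14e-08) and 3.56-fold for Tor3a (log2 1.83, SE 0.23; adjusted p = 2.08e-06). Daxx, a histone chaperone and repressor, was higher by 1.66 and Ifi35 by 1.25 on the log2 scale.

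**Figure D2:**
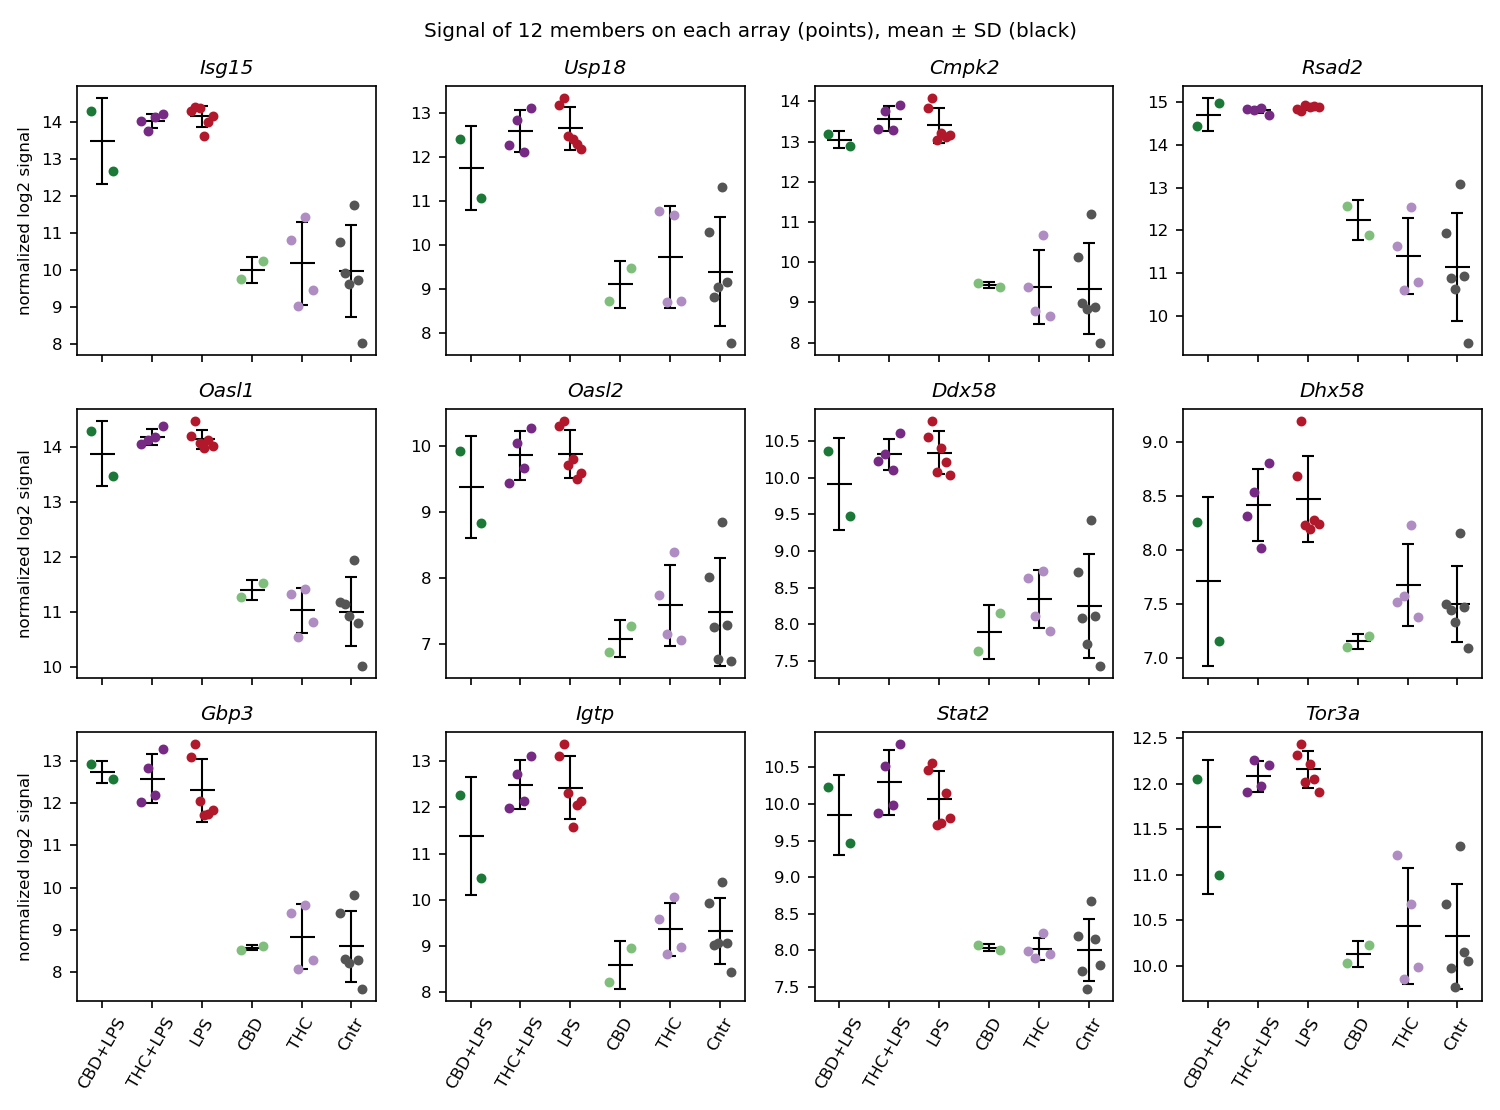
Log2 signal of 12 members, the 2 with the largest LPS difference in each of the 6 role groups, with a point per array and the mean ± SD of each group beside it (2, 4, 6, 2, 4 and 6 arrays for CBD+LPS, THC+LPS, LPS, CBD, THC and Cntr). In all 12 panels the LPS arrays lie above the Cntr arrays, and the CBD+LPS replicates lie far apart for Isg15 (14.32 and 12.68) and Igtp (12.27 and 10.47).

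The 8 members that were not called were mostly below detection. Ifit1, Rtp4, Zbp1, Ifi204, Iigp1 and Sp100 were detected on no array of any group, and Gbp2 on none of the LPS and Cntr arrays. A second Iigp1 probe was the only one of the 48 member probes called lower with LPS (limma, adjusted p = 0.0266), but it was not detected on any array either, so no fold is given. The Ifit1 probe had log2 signals of 6.09, 6.21 and 6.42 (lowest, median and highest) on LPS arrays, against 5.90, 6.35 and 6.69 on Cntr arrays, and the Gbp2 probe had 6.61, 6.86 and 7.24, against 6.55, 6.69 and 6.87. These levels lie near or under the median of all probes on an array, and a change could not be seen with these probes. The printed promoters of Ifit1 and Gbp2 both hold the searched letters. Xaf1, a pro-apoptotic member, was detected on 5 of 6 LPS arrays and 2 of 6 Cntr arrays and differed by 0.18 on the log2 scale (limma, adjusted p = 0.163).

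Read against the promoters, 16 of the 25 called members with a matched promoter held the ISRE letters, and 9 did not (Cmpk2, Daxx, Ifi35, Ifi47, Ifit2, Isg20, Oasl1, Oasl2 and Samhd1). Of the 4 members with a matched promoter that were measured but not called, 2 held them (Gbp2 and Ifit1). These counts describe the windows and were not tested.

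Genes that act before the effectors also differed. Of 22 listed genes of the pathway from receptor to transcription factor, 21 were measured, with 13 higher and 1 lower on LPS than on Cntr arrays. Ifnb1, the interferon beta gene, was detected on all 6 LPS arrays and no Cntr array and was at least 8.71-fold higher (limma, adjusted p = 1.41e-08). Ikbke, a kinase that phosphorylates IRF3 and IRF7, was higher by 2.85, Irf1 by 2.77 and Irf7, the factor that amplifies interferon production, by 2.02 on the log2 scale, whereas Tlr4 was lower by 0.95. Of 36 further interferon-induced genes, 29 were measured, with 17 higher and 1 lower. The chemokine gene Cxcl10, detected on 5 of 6 Cntr arrays, was 44.0-fold higher, and Irgm2, Gbp7 and Ifi205 were higher by 3.13, 2.77 and 2.12 on the log2 scale. Gbp7 was detected on all 6 LPS arrays and 1 of 6 Cntr arrays, so its difference is measured against a signal near background. The lower gene was Ifi30 (log2 difference -0.62), a lysosomal thiol reductase used in antigen presentation.

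Replicates within a group differed from each other across the family. The median SD of the 30 called members was 0.36 on LPS arrays and 0.582 on Cntr arrays, against 0.164 and 0.169 for all probes detected on every array. LPS replicate 2 was the highest LPS array for 27 of the 30, against 16.1% of the probes detected on every array. Cntr replicate 4 was the highest Cntr array for 26 of the 30, against 14.3% of those probes. The mean log2 signal of the 30 members was 11.60 and 11.86 on LPS replicates 1 and 2 and between 10.98 and 11.08 on the other LPS arrays. On Cntr arrays it was 9.50 on replicate 1, 10.02 on replicate 4 and between 8.43 and 8.93 on the rest. The 4 THC+LPS arrays showed the same kind of split, with 11.46 and 11.72 on replicates 2 and 4 and 11.03 and 11.02 on replicates 1 and 3.

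In the LPS, Cntr, THC and THC+LPS groups many members moved together from array to array, and so did their regulator Irf7, with log2 signals of 11.38 and 11.57 on LPS replicates 1 and 2 and 10.25 to 10.39 on the other LPS arrays, and with 10.51 on Cntr replicate 4. Microglial markers moved with the same arrays, since C1qb had 12.95 and 12.78 on LPS replicates 1 and 2 and 12.10 to 12.30 on the others. The leading component of the residual spread over the probes detected on every array held 36.9% of that spread. LPS replicates 1 and 2, Cntr replicates 1 and 4, THC replicates 1 and 3 and THC+LPS replicates 2 and 4 lay on its negative side. In the groups of 2 arrays the residuals mirror each other, so 1 replicate of each group had to lie on that side. These were CBD+LPS replicate 2 (-4.88) and CBD replicate 1 (-6.17). Their members were lower than in the other replicate of the group. The mean log2 signal was 10.43 against 11.25 for CBD+LPS and 8.82 against 9.12 for CBD. The part of this component in the members' spread was not tested. The 25 separated members were defined by groups that do not overlap, so Cntr replicate 4 lay under the lowest LPS array for them by definition.

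The LPS response was then measured in cells that had received a cannabinoid. On THC+LPS arrays 27 members were called higher than on THC arrays and none lower, beside 3.96% of all probes higher and 4.81% lower, and the median log2 difference was 1.67. On CBD+LPS arrays 15 members were called higher than on CBD arrays and none lower, beside 1.79% and 1.51% of all probes, with a median of 1.35. All 27 and all 15 were among the 30 members called with LPS alone. The comparison for CBD rests on 2 arrays a side, and its differences depended on single arrays. Isg15 was higher by 2.68 on the log2 scale with CBD+LPS replicate 1 left out and by 4.31 with replicate 2 left out. For Igtp these differences were 1.88 and 3.68. Fitted without the other groups, CBD+LPS against CBD gave 7 calls.

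Cmpk2, Isg15 and Gbp3 were among the members with the largest differences in all 3 settings. Cmpk2 was higher by 3.62 on the log2 scale in CBD+LPS than in CBD, by 4.19 in THC+LPS than in THC, and by 4.07 in LPS than in Cntr. Isg15 was higher by 3.50 in CBD+LPS than in CBD, by 3.85 in THC+LPS than in THC and by 4.19 in LPS than in Cntr. For Gbp3 these differences were 4.16 with CBD, 3.74 with THC and 3.69 with LPS alone. Gbp5 was at least 2.98-fold higher in CBD+LPS than in CBD and at least 3.56-fold higher in THC+LPS than in THC, since no array without LPS detected it. For Rsad2 the CBD comparison was close to the threshold, with log2 signals of 14.43 and 14.97 on CBD+LPS arrays and 12.57 and 11.90 on CBD arrays (difference 2.47; limma, adjusted p = 0.0423). The test of the difference between responses, an interaction term, called no member for CBD or for THC, nor any of the 24611 probes, and no member had an unadjusted p below 0.05. The medians of these differences were -0.20 for CBD and -0.01 for THC, and the interval for Rsad2 with CBD was wide, -2.88 to 0.35.

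**Figure D3:**
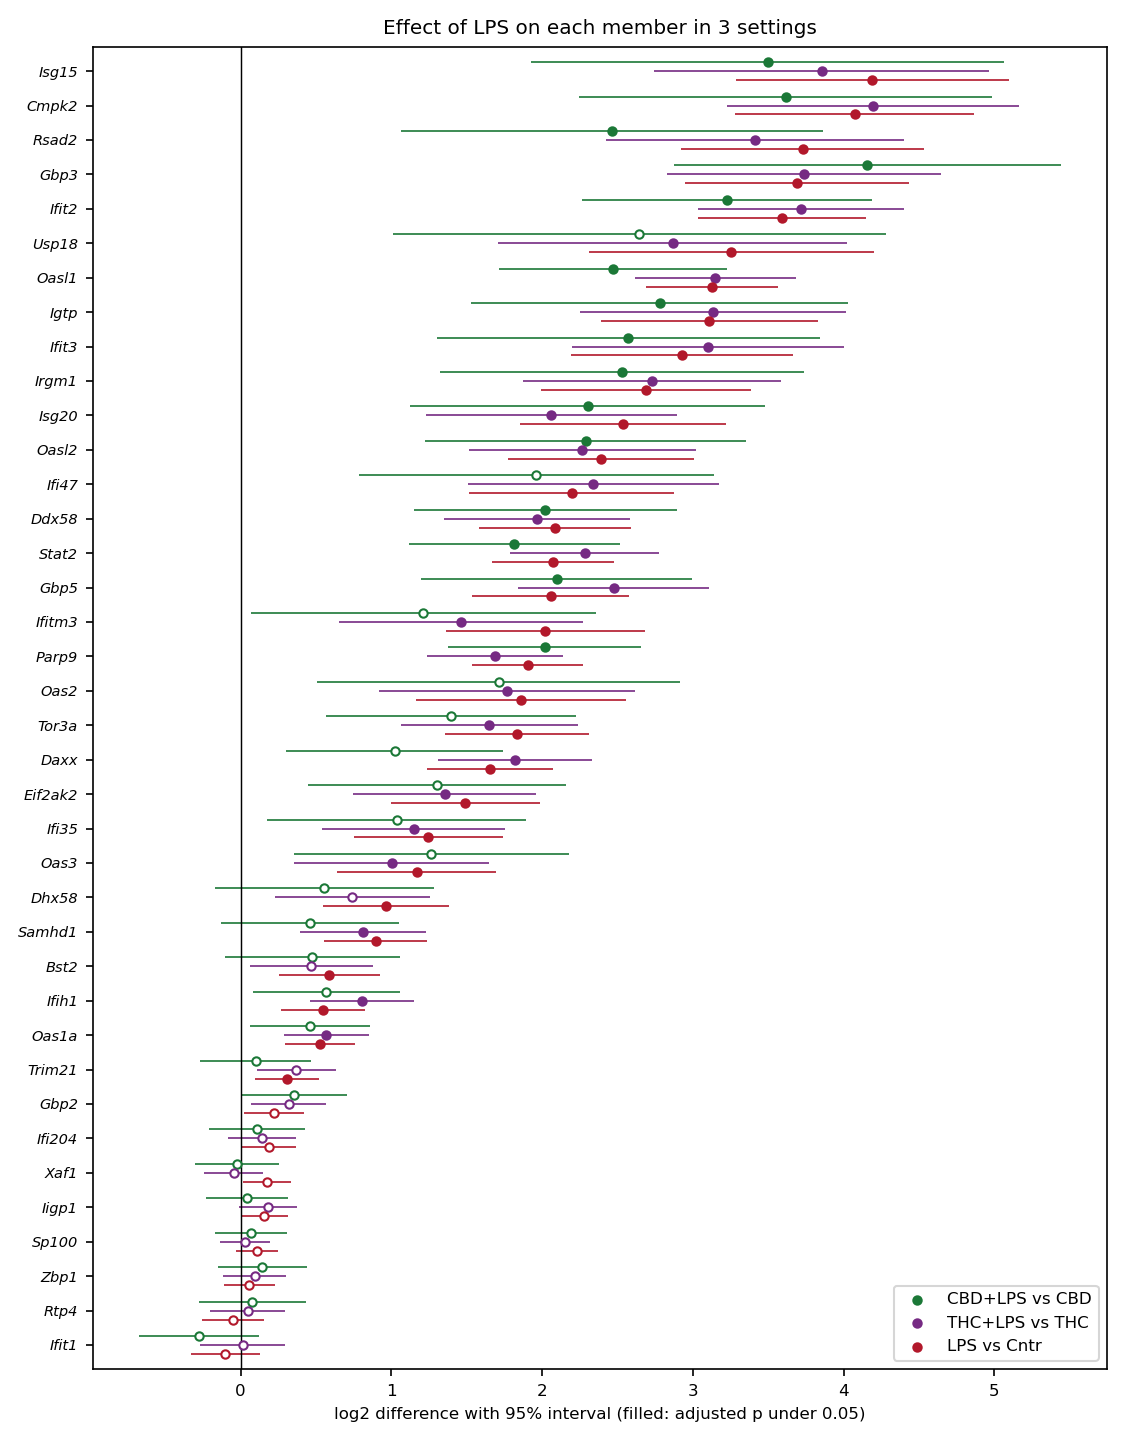
Log2 difference of each member between arrays with and without LPS, with its 95% interval, for CBD+LPS against CBD, THC+LPS against THC and LPS against Cntr, where filled points passed the adjusted p of 0.05. The intervals are widest for CBD, where 15 members passed, against 27 with THC and 30 with LPS alone.

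CBD+LPS arrays were compared with LPS arrays to ask whether the cannabinoid altered the response. No member was called, while 2.41% of all probes were called higher and 1.5% lower. At an unadjusted p below 0.05 no member was higher and 6 were lower (Samhd1, Eif2ak2, Dhx58, Igtp, Daxx and Ifi35), where 7.6% of all probes were lower at that p. The estimates leaned one way all the same: 31 of 38 were below 0, against 52.6% of all probes. The median of the 38 was -0.30, against -0.01 for all probes. Many members moved together from array to array, so the 31 are not independent of each other. The lowest adjusted p in limma was 0.0936, for Samhd1. A second Samhd1 probe was not called either (limma, adjusted p = 0.419). It was detected on no CBD+LPS array and on 3 of 6 LPS arrays.

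The 2 CBD+LPS arrays did not give the same picture. Samhd1 had log2 signals of 11.85 and 11.11 on CBD+LPS replicates 1 and 2, against 11.92, 12.03 and 12.82 (lowest, median and highest) on LPS arrays, so both replicates lay under the LPS range (log2 difference -0.71, SE 0.23, 95% interval -1.19 to -0.23). Eif2ak2 had 11.97 and 10.81, against 12.10, 12.24 and 12.81 on LPS arrays, again with both replicates below (log2 difference -0.99, SE 0.34; limma, adjusted p = 0.110). Dhx58 had 8.26 and 7.16, against 8.19, 8.26 and 9.19 on LPS arrays, so that replicate 1 equalled the LPS median and replicate 2 lay far below the range, where the probe was not detected (detection p 0.0523). Igtp followed the same course, with 12.27 and 10.47, against 11.58, 12.23 and 13.37 on LPS arrays (log2 difference -1.06, SE 0.49; adjusted p = 0.290). Daxx had 12.76 and 11.72, against 12.39, 12.65 and 13.68 on LPS arrays, and Ifi35 had 10.54 and 9.56, against 10.42, 10.70 and 11.26 on LPS arrays. For both, replicate 1 was inside the LPS range and replicate 2 was under it. Gbp3 was at 12.92 and 12.56 on CBD+LPS arrays, inside the LPS range, and its difference was 0.44 with a 95% interval of -0.61 to 1.48.

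Over the 30 members that were higher with LPS, CBD+LPS replicate 2 was lower than replicate 1 in 27. Of the probes detected on every array, 52.2% were lower in replicate 2. Replicate 2 lay below the lowest LPS array in 25 of the 30. So did 22.5% of all probes and 40.9% of the 1386 probes called higher with LPS. Replicate 1 lay below it in 3 of the 30, beside 17.5% of all probes and 25.8% of those 1386. The members that replicate 2 did not place under the LPS range were Trim21, Rsad2, Ifih1, Gbp3 and Gbp5. When CBD+LPS replicate 1 was left out, 5 members were called lower (Samhd1 at -1.08, Eif2ak2 at -1.57, Igtp at -1.96 and Daxx at -1.13 on the log2 scale, and Dhx58, which was not detected on replicate 2 and so has no exact difference), and 3.54% of all probes were called lower. When replicate 2 was left out none was called, the median was -0.07 and Igtp was at -0.15. Other genes differed between the same replicates: the stress gene Ddit3 (CHOP) was at 10.42 on replicate 1 and 12.72 on replicate 2, against 8.55 to 9.82 on LPS arrays, and Il1b was at 13.31 and 10.53 on the CBD+LPS arrays. Their part in the members' values was not tested.

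Upstream, Ifnb1 was the only gene of the 2 further lists called in this comparison. Its log2 signals were 9.31 and 7.84 on CBD+LPS arrays, against 9.21 to 11.51 on LPS arrays, a difference of -1.72 (limma, adjusted p = 0.0292). Replicate 2 was under the LPS range and replicate 1 was within it, near its lower end.

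**Figure D4:**
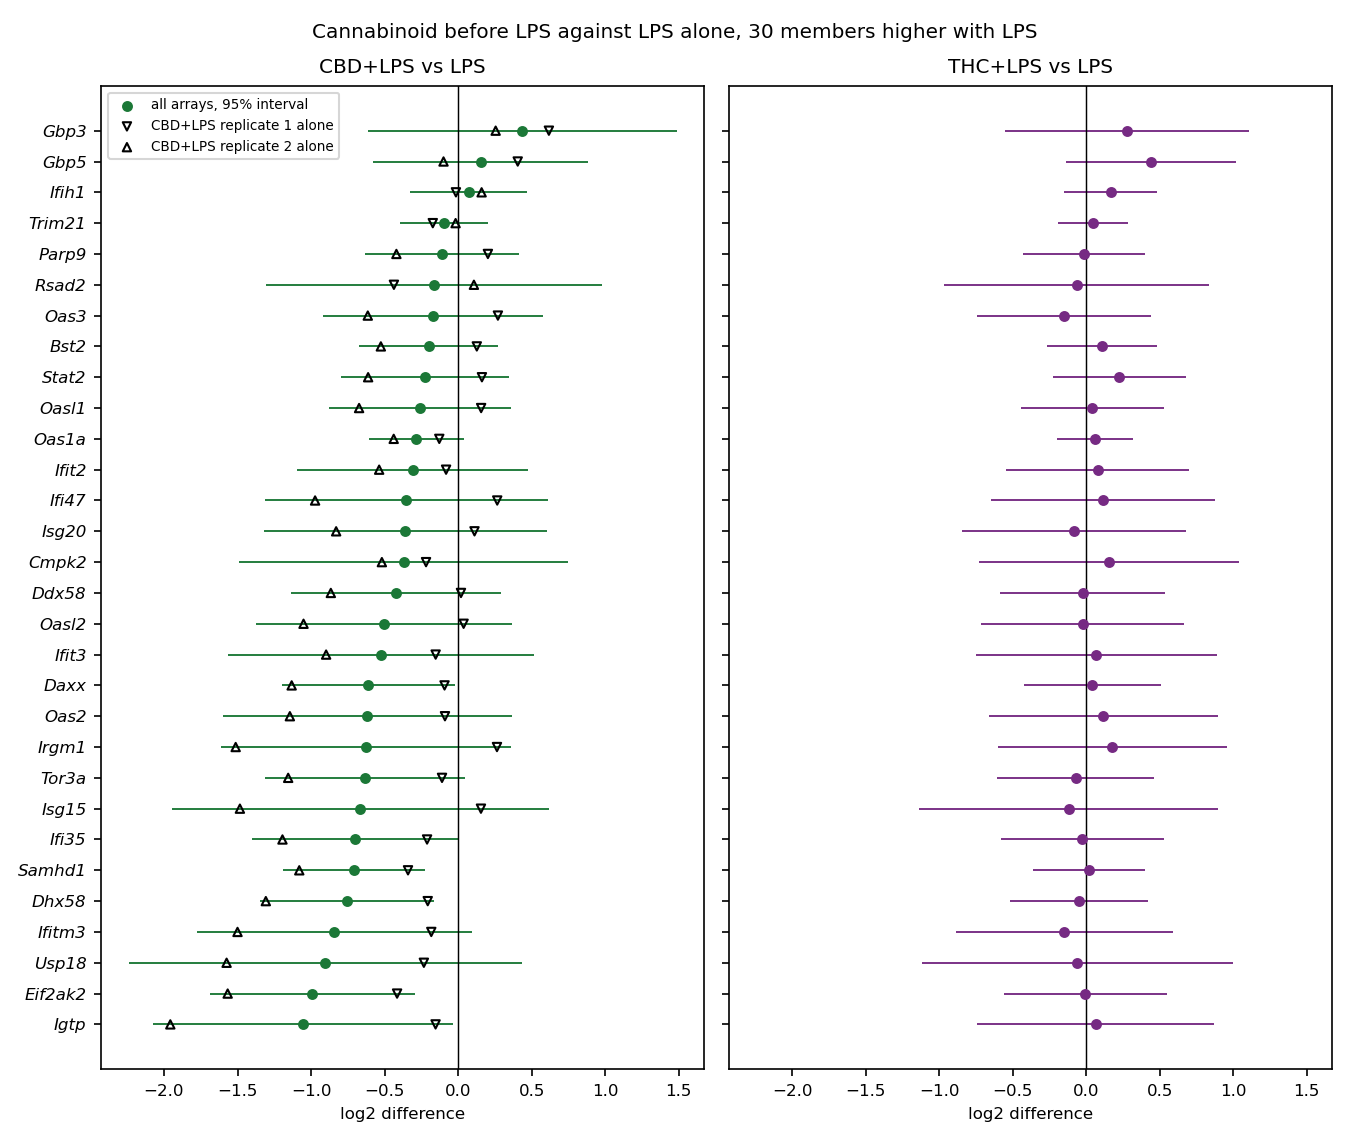
Log2 difference from LPS arrays, with its 95% interval, for the 30 members that were higher with LPS, for CBD+LPS and THC+LPS, with each CBD+LPS replicate against the LPS mean as a triangle. The THC+LPS points stay near 0, and the CBD+LPS replicates are widely separated for Igtp, Dhx58 and Isg15, with replicate 2 as the lower one.

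THC is an isomer of CBD in which the ring that is open in CBD is closed. THC+LPS arrays set against LPS arrays gave no called member, and no probe at all was called (0% higher and 0% lower). No member had an unadjusted p below 0.05, the median was 0.04, and the estimates ran from -0.16 to 0.44 on the log2 scale. The highest, Gbp5, had 8.61, 9.03, 8.66 and 9.93 on the THC+LPS arrays, against 8.02, 8.27 and 9.83 (lowest, median and highest) on LPS arrays, and the groups overlapped.

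The compounds were also set against each other at the same dose and time, in 2 pairs. CBD+LPS against THC+LPS gave no called member, beside 0.642% of probes higher and 0.28% lower, with a median of -0.37. At an unadjusted p below 0.05, 5 members were lower and none higher (Samhd1, Eif2ak2, Dhx58, Daxx and Igtp), where 5.15% of all probes were lower, and the interval for Igtp was -2.20 to -0.04. Samhd1 and Eif2ak2 lay under the lowest THC+LPS array on both CBD+LPS arrays. Dhx58, Daxx and Igtp lay under it on CBD+LPS replicate 2 only, where Dhx58 was not detected. Igtp was at 12.27 and 10.47 on CBD+LPS replicates 1 and 2, against 11.99 to 13.12 on THC+LPS arrays. CBD against THC without LPS gave no called member, beside 0.52% of probes higher and 0.264% lower, with a median of -0.16. Eif2ak2 alone was lower at an unadjusted p below 0.05 (log2 difference -0.94; limma, adjusted p = 0.300), where 4.68% of all probes were.

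Without LPS, neither compound moved a member past the threshold. CBD against Cntr gave none, beside 1.71% of probes higher and 1.13% lower, with a median of -0.06. Eif2ak2 alone had an unadjusted p below 0.05, where 6.41% of all probes were lower at that p. It had log2 signals of 9.97 and 10.21 on CBD arrays, against 10.32, 10.72 and 11.68 (lowest, median and highest) on Cntr arrays, a difference of -0.80 (limma, adjusted p = 0.273) with no overlap. Rsad2 had log2 signals of 12.57 and 11.90 on CBD arrays, against 9.38, 10.90 and 13.09 (lowest, median and highest) on Cntr arrays, within the Cntr range, and its difference of 1.099 had an interval of -0.04 to 2.24. THC against Cntr gave none either, beside 0.00406% of probes higher and 0% lower.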

How the data were processed

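Total RNA of 24 BV-2 samples was labelled and hybridised to Illumina MouseRef-8 arrays by the authors. The deposited tables hold a mean bead intensity and a detection p-value per probe and array, not background corrected, and a log2 table. Quantile normalisation of the deposited intensities differed from the deposited log2 values by at most 5e-09, so these are quantile-normalised log2 signals without background correction. The scanner software is not given in the sources used here. The number of arrays limits the precision.

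All 24611 probes and 24 arrays entered 1 model with 6 groups in limma 3.58.1 (R 4.3.3), and p-values were adjusted by Benjamini-Hochberg over all probes within each comparison. A call is an adjusted p below 0.05, and the fit was tested on simulated data. Groups came from the labels. Probes were named from the platform annotation, in which 15161 genes had a probe. Values are given for the 2 called members of each role group with the largest LPS difference, for members not called, and for members with an unadjusted p below 0.05 after CBD. The members, the lists and this last choice were made with earlier results of these data known. Same-numbered replicates did not deviate together (mean correlation 0.0039, range -0.643 to 0.759), so the numbers were not used as pairs. Alternatives were neqc and normexp background correction, median scaling, a detection filter, a robust trend, array weights, each comparison alone, a second probe per gene and leaving out each array.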

Additional observations from a re-analysis of the deposited data

Results flagged for a closer look

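Within groups of 4 or 6 arrays, 152 gap tests (the distance of the highest or lowest array to the next, divided by the range) marked 4 single values among the members, and chance alone marks about 5% of groups. The log2 signal of Zbp1 was 7.20 on LPS replicate 1, above the next LPS array at 6.86. That of Iigp1 was 6.82 on LPS replicate 4, above the next at 6.58. Ifit1 was at 6.43 on THC+LPS replicate 2, above the next at 6.27, and Ifih1 was at 6.35 on THC replicate 1, below the next at 6.43. None of the 4 values was detected on its array (detection p 0.0608, 0.286, 0.865 and 0.940).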

How the results depend on the processing

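The counts of members called higher were 30 for LPS against Cntr, 15 for CBD+LPS against CBD and 27 for THC+LPS against THC. Over the alternatives other than leaving out arrays they were 29 to 30, 7 to 19 and 25 to 28, and the one that moved a count by over 1.5 times was fitting CBD+LPS and CBD alone (7 calls). With neqc the counts were 29, 10 and 26. With the replicate block they were 29, 14 and 27, although the replicate numbers do not pair the arrays, and with 3 runs of 8 consecutive columns as a block, an alternative chosen after seeing the data, 29, 15 and 28. Leaving out each array gave 29 to 30, 5 to 18 and 23 to 29. The counts of the other comparisons stayed at 0 under every alternative except leaving out CBD+LPS replicate 1, so that over the left-out arrays CBD+LPS against LPS gave 0 to 5 members lower and CBD+LPS against THC+LPS 0 to 3. The 5 members then called against LPS had adjusted p-values of 0.0214 (Samhd1), 0.0195 (Eif2ak2), 0.0183 (Dhx58, not detected on the remaining array), 0.0454 (Igtp) and 0.0446 (Daxx). The median for CBD+LPS against LPS ranged from -0.51 to -0.24 over the alternatives and from -0.61 to -0.07 over the left-out arrays. Within the runs of columns the medians of the comparisons with a cannabinoid did not all keep their sign: CBD+LPS against LPS gave -0.33 in the first run and -0.30 in the last, THC+LPS against LPS -0.37 and 0.22 in the same runs, CBD against Cntr -0.27 in the middle run and 0.26 in the last, and THC against Cntr -0.24 in the first and 0.03 in the middle run. Each rests on 1 to 3 arrays a side, and the first run holds LPS replicates 1 and 2. The mean log2 signal of the 30 members called with LPS was 11.25 on CBD+LPS replicate 1. It was 11.60 and 11.86 on the LPS arrays of that run, which were the highest LPS arrays for this mean. Replicate 2 was lower in 25 of them against those of the last run. The medians of the other comparisons were not followed under the other alternatives, apart from LPS against Cntr (1.63 to 2.07). Depth limits the 6 members with no detected array, for which neither a change nor its absence can be read, and the CBD groups have 2 arrays each.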
